A study of Mus musculus with 110 samples.

Results

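Genes of liver sinusoidal endothelial cells, of endothelium in general and of hepatic stellate cells were followed through 4 tissues of mice on a control or methionine-restricted (MetR) diet, at room temperature (RT) or after cold exposure (CE). The set holds 33 genes, of 56884 gene identifiers in the 3 deposited count tables. They were listed by name for their rise in liver, with a published set of genes higher in cold control-fed liver known. Liver Ctrl_CE vs Ctrl_RT is taken here as the contrast that chose them. Its values, and those of the liver interaction that contains it, are thus a description from which no test is read. Liver MetR_RT vs Ctrl_RT and MetR_CE vs Ctrl_CE each share 7 libraries with it. By role, 8 genes mark sinusoidal endothelium (Stab1, Stab2, Clec4g, Lyve1, Oit3, Gpr182, Dnase1l3, Fcgr2b), 4 encode signals that sinusoidal or central vein endothelium sends to hepatocytes (Wnt2, Wnt9b, Rspo3, Bmp2), 2 are transcription factors of sinusoidal endothelium (Gata4, Maf), 9 are used as genes of endothelium in general, here called pan-endothelial (Pecam1, Kdr, Flt1, Flt4, Tek, Tie1, Cdh5, Eng, Ptprb), and 10 are used as genes of stellate cells (Lrat, Reln, Dcn, Des, Hhip, Ecm1, Colec11, Hand2, Lhx2, Pdgfrb).

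The mice were wild-type C57BL/6N males, 16 weeks old at the end and housed singly, with 28 mice in 4 groups of 7. Every diet lacked cysteine, so the controls shared that depletion. The control diet (Ctrl) held 0.86% methionine and the restricted diet 0.12%, although the sources differ slightly on the control value. Ctrl_RT and MetR_RT mice ate their diet for 7 days at 22 °C, and Ctrl_CE and MetR_CE mice were in addition kept at 4 °C for 24 h. The cold groups thus also had an added day in the study, which cannot be told apart from the cold. Poly(A) RNA of whole liver, interscapular brown adipose tissue (iBAT), inguinal white adipose tissue (iWAT) and epididymal white adipose tissue (eWAT) was sequenced in bulk. In bulk tissue, fewer cells of a type and less RNA per cell cannot be told apart, and the same holds for more cells and more RNA per cell.

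Liver sinusoids are lined by a fenestrated endothelium without a continuous basement membrane. Its scavenger receptors, among them the stabilins Stab1 and Stab2 and the Fc receptor Fcgr2b, clear waste proteins and immune complexes from the blood. Endothelial Wnt ligands and R-spondin 3 set the zonation of hepatocytes around the central vein, and endothelial Bmp2 and Bmp6 set hepcidin (Hamp) and thereby iron uptake. Stellate cells sit between sinusoid and hepatocyte, store retinyl esters made by Lrat, and can turn into collagen-producing myofibroblasts, a state marked by Acta2 and Col1a1.

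Liver libraries held 6987895 to 33444374 counts, iBAT 12672686 to 31232349, iWAT 16607493 to 33141066 and eWAT 22021114 to 33372110, and 105 libraries were analysed. Groups had 7 libraries except iBAT Ctrl_RT (6), iBAT Ctrl_CE (6), iWAT MetR_CE (6), eWAT Ctrl_RT (4) and eWAT MetR_RT (6). The labelled tissues matched their markers: 12 hepatocyte genes summed to 86210 to 137600 library-size-scaled counts (CPM) in liver and to 2022 to 11550 CPM in the fat depots, and 6 adipocyte genes to 18.01 to 45.97 CPM in liver and 10110 to 31810 CPM in the depots. All 33 genes passed the low-count filter in liver and eWAT, 32 in iWAT (not Gata4) and 30 in iBAT (not Clec4g, Hand2 and Lhx2). Levels below are CPM scaled by trimmed mean of M-values (TMM), given as lowest, median and highest library of a group. They are not divided by transcript length and are therefore compared between libraries of 1 gene, not between genes. A gene was called when edgeR's quasi-likelihood test gave a Benjamini-Hochberg adjusted p under 0.05 over all genes of the tissue and the fold change was at least 1.5 in either direction (the size limit).

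In liver of control-fed mice, which is the contrast that chose the genes, 29 of the 33 lay above the call limits in the cold, where 7.28% of all 22143 genes tested did so. The fitted log2 fold changes had a median of 0.98 and ran from 0.14 (Gata4) to 1.37 (Flt4). By role the medians were 0.97 for sinusoidal genes, 1.11 for the endothelial signals, 1.18 for pan-endothelial genes and 0.67 for stellate genes. Just inside the limit lay Ecm1 (0.62) and Clec4g (0.64), and outside it lay Maf (0.51), Colec11 (0.50), Des (0.24) and Gata4. Every Ctrl_CE library lay above every Ctrl_RT library for 16 genes, 6 of them sinusoidal and 9 pan-endothelial, and for 0 of the 10 stellate genes, beside 4.01% of all genes. Several stellate genes spread more widely among the Ctrl_RT mice: the summed level of the 10 ran from 145 to 362 CPM there, and replicates 5, 6 and 7 were lowest. The lowest Ctrl_CE library in both endothelial sums was replicate 1, at 328 CPM for the sinusoidal and 309 CPM for the pan-endothelial genes, still above all Ctrl_RT libraries (up to 264.5 and 247.8 CPM). Without any 1 of the 28 liver libraries the count lay between 26 and 30.

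**Figure D1:**
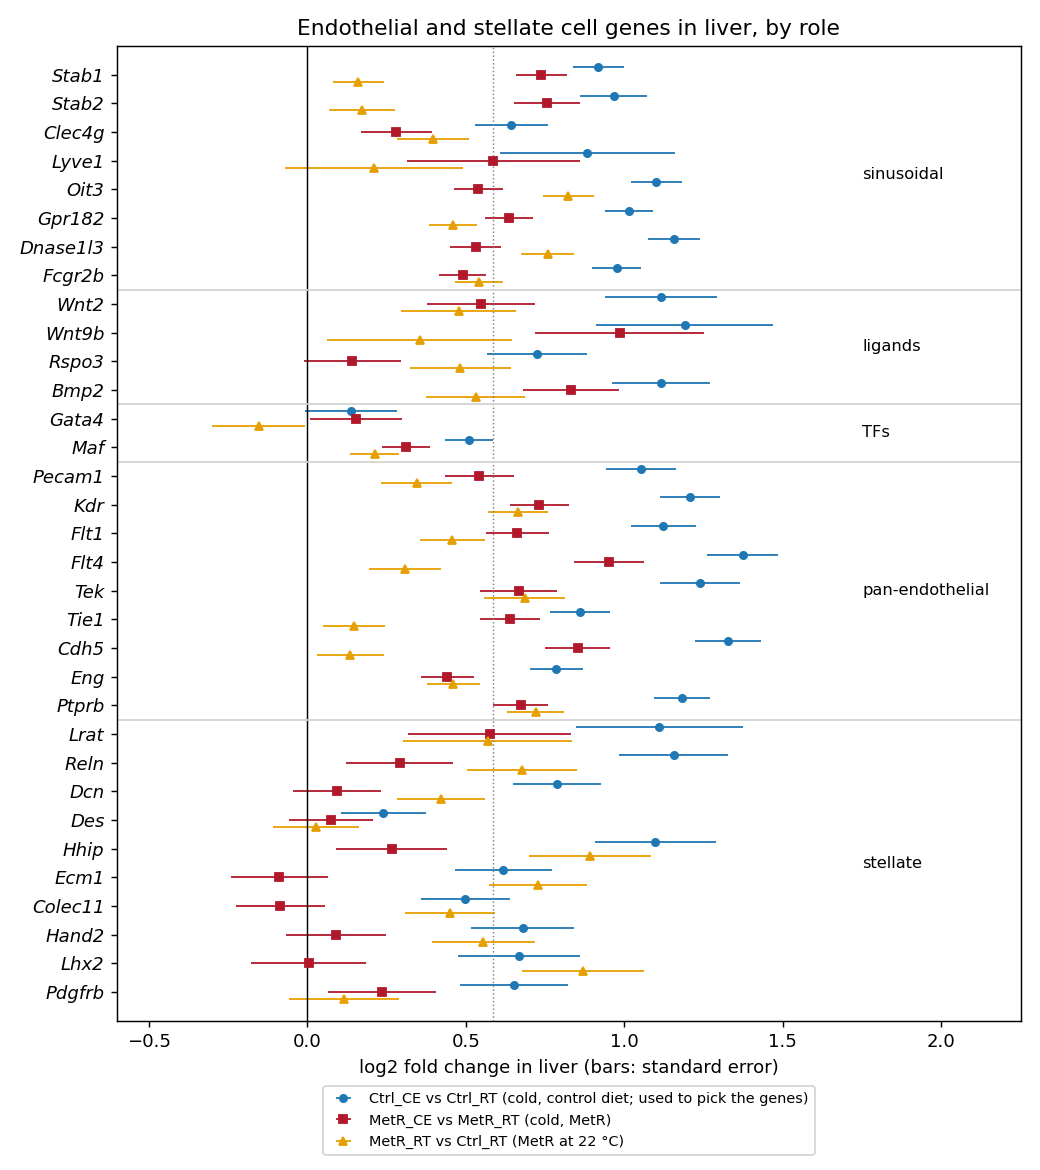
Log2 fold change of each of the 33 genes in liver (x axis; bars, standard error), ordered by role, for cold on the control diet (circles; the contrast that chose the genes), cold on MetR (squares) and MetR at 22 °C (triangles). The dotted line marks the size limit of 1.5-fold. In cold on MetR the pan-endothelial squares lie between 0.44 and 0.95, and the stellate squares between -0.09 and 0.57.

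MetR_CE vs MetR_RT asks whether the cold changes these genes in mice on the restricted diet. Its 14 libraries are not those of Ctrl_CE vs Ctrl_RT. Whether they also took part in the choice is not known. The choice was made for a rise in liver with earlier liver results known. The calls and p-values of this comparison are thus not an independent test. In this comparison 12 of the 33 genes rose and 0 fell, beside 2.75% of all genes that rose and 2.44% that fell. The shares of all genes given throughout cover every gene with at least 10 counts in total. They are not matched to the levels of the 33 genes. Sinusoidal and pan-endothelial genes made up most of them: 3 of 8 sinusoidal genes (Stab1, Stab2, Gpr182), 7 of 9 pan-endothelial genes (Kdr, Flt1, Flt4, Tek, Tie1, Cdh5, Ptprb) and 2 of 4 endothelial signals (Wnt9b, Bmp2). Of the 10 stellate genes 0 were called by edgeR or by DESeq2, with 1 (Lrat, log2 fold change 0.57) under an unadjusted p of 0.05. The median log2 fold change over the 33 was 0.54, where all genes tested had -0.04.

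Among the scavenger receptors, Stab1 measured 48.1, 56.0 and 61.8 CPM (lowest, median, highest) in MetR_RT liver and 86.8, 91.6 and 103 CPM in MetR_CE liver. Stab2 measured 43.9, 46.9 and 65.4 CPM against 76.4, 81.04 and 93.8 CPM. Each was higher in all 7 cold libraries than in all 7 warm ones. The log2 fold change was 0.74 ± 0.0801 (SE, n = 7; edgeR adjusted p = 2.41e-07) for Stab1 and 0.76 ± 0.104 (adjusted p = 5.87e-06) for Stab2. Gpr182, an endothelial receptor that takes up chemokines, went from 19.8, 23.1 and 26.9 CPM to 30.3, 37.8 and 39.3 CPM, again without overlap, with a log2 fold change of 0.64 ± 0.0745. Oit3 (0.54), the nuclease Dnase1l3 (0.53) and Fcgr2b (0.49) passed the adjusted p but not the size limit, and their groups did not overlap either. Fcgr2b, for example, measured 32.05, 38.2 and 41.4 CPM in MetR_RT and 46.3, 52.6 and 58.3 CPM in MetR_CE. Clec4g, a lectin of the sinusoid, measured 39.8 to 51.5 CPM in MetR_RT and 52.1 to 60.4 CPM in MetR_CE, apart by a narrow margin, with 0.28 ± 0.113 (edgeR adjusted p = 0.0836). The hyaluronan receptor Lyve1, low and variable at 5.32 to 15.7 CPM in MetR_RT and 8.05 to 17.4 CPM in MetR_CE, had 0.59 ± 0.272 (adjusted p = 0.142). Neither passed the test.

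**Figure D2:**
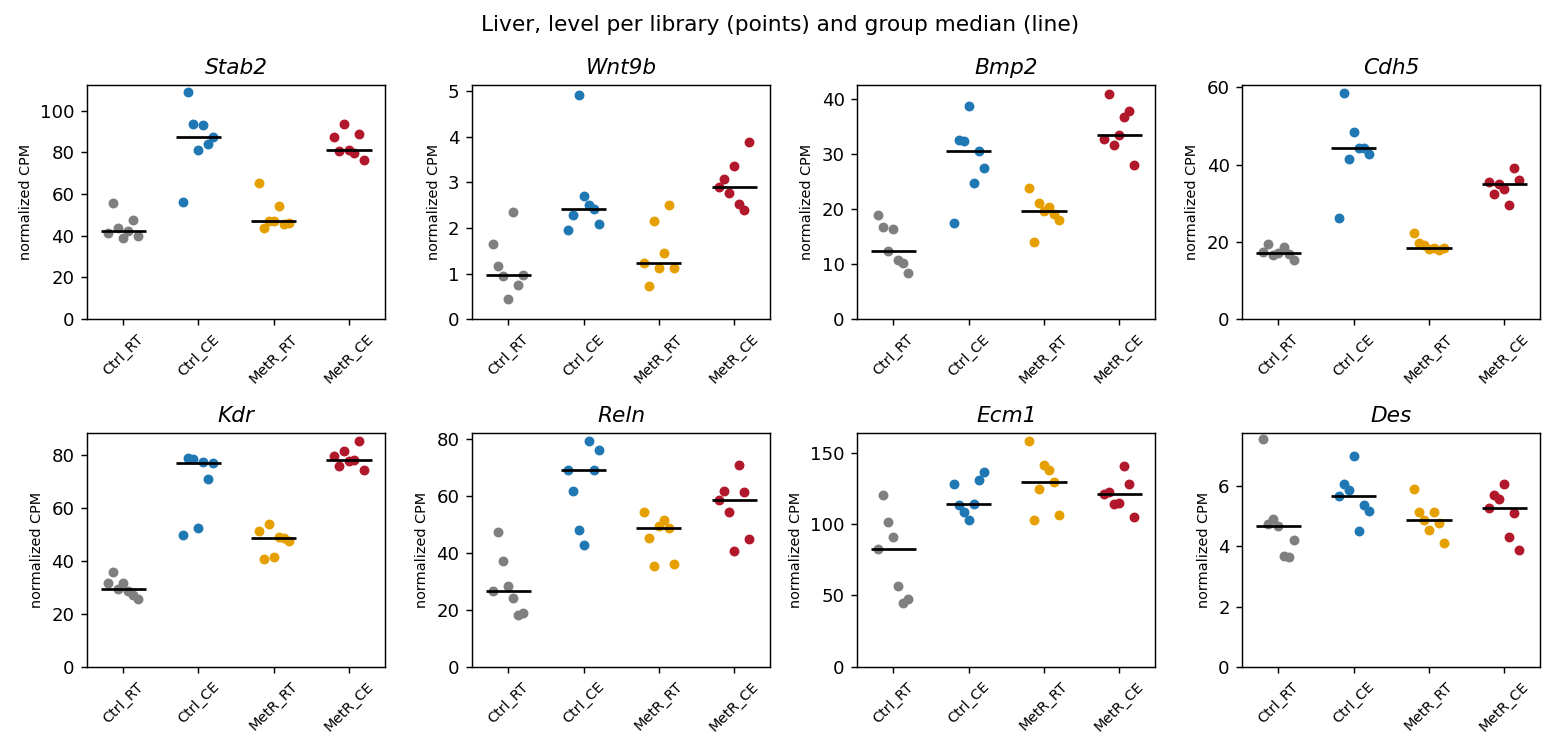
Level of 8 of the genes in each liver library (points; normalized CPM on linear axes that start at 0) with the group median (line) for Ctrl_RT, Ctrl_CE, MetR_RT and MetR_CE. For Stab2, Bmp2, Cdh5 and Kdr all MetR_CE points lie above all MetR_RT points, and for Reln, Ecm1 and Des these groups overlap.

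Of the 4 endothelial signals, Wnt9b and Bmp2 were called. Wnt9b, a Wnt ligand of central vein endothelium, measured 0.723, 1.24 and 2.51 CPM in MetR_RT and 2.39, 2.9 and 3.89 CPM in MetR_CE, and rose by a log2 fold change of 0.98 ± 0.265 (adjusted p = 0.00830). It rests on 7 to 86 counts per liver library. Bmp2 measured 14.1, 19.7 and 23.8 CPM against 27.9, 33.4 and 40.9 CPM, with no overlap and a log2 fold change of 0.83 ± 0.151 (adjusted p = 0.000185). Wnt2, the other Wnt ligand, measured 1.84, 3.18 and 3.99 CPM against 3.23, 4.98 and 5.54 CPM. Its log2 fold change of 0.55 ± 0.171 passed the adjusted p (0.0223) but not the size limit. Rspo3, which amplifies Wnt signals, measured 4.80, 6.09 and 7.42 CPM against 4.29, 6.55 and 8.63 CPM, so that its groups overlapped throughout (log2 fold change 0.14 ± 0.153, adjusted p = 0.600). Of the transcription factors, Maf measured 38.3, 43.96 and 49.5 CPM against 51.7, 55.1 and 58.5 CPM, a step of 0.31 ± 0.0756 without overlap that stayed under the size limit (adjusted p = 0.00364). Gata4 measured 14.4, 21.9 and 27.02 CPM against 19.97, 23.5 and 28.1 CPM and had 0.15 ± 0.146 (adjusted p = 0.537).

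All 9 pan-endothelial genes had an adjusted p under 0.05, and for each of them the 7 MetR_CE libraries lay above the 7 MetR_RT libraries. Over the whole set 18 genes stood apart in this way (7 sinusoidal, 9 pan-endothelial, Bmp2 and Maf), beside 3.64% of all genes. The largest differences among the 9 were those of Flt4, the receptor for the lymphangiogenic ligands Vegfc and Vegfd, and of Cdh5, the cadherin of endothelial junctions. Flt4 measured 17.2, 20.8 and 24.6 CPM in MetR_RT and 35.2, 41.4 and 45.6 CPM in MetR_CE (log2 fold change 0.95 ± 0.110, adjusted p = 4.55e-07). Cdh5 measured 17.9, 18.5 and 22.4 CPM against 29.6, 34.9 and 39.2 CPM (0.85 ± 0.103). Kdr, the main Vegfa receptor, measured 40.8, 48.7 and 53.9 CPM against 74.1, 78.1 and 85.4 CPM (0.73 ± 0.0923). The phosphatase Ptprb, which acts on the angiopoietin receptor Tek, measured 50.1, 57.5 and 66.1 CPM against 89.9, 93.8 and 96.5 CPM (0.67 ± 0.0877). Tek itself (0.67), its relative Tie1 (0.64) and the decoy receptor Flt1 (0.66) rose by similar amounts. Eng, a co-receptor for Bmp9 and Bmp10, measured 71.7, 83.1 and 93.8 CPM against 105, 112 and 114 CPM, and its 0.44 ± 0.0832 stayed under the size limit, as did the 0.54 of the adhesion molecule Pecam1.

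The 10 stellate genes had a median log2 fold change of 0.09 in MetR_CE vs MetR_RT, with a range from -0.09 (Ecm1) to 0.57 (Lrat). Lrat measured 9.86, 18.2 and 24.6 CPM in MetR_RT and 12.3, 24.95 and 42.3 CPM in MetR_CE (adjusted p = 0.125). Reln, a secreted glycoprotein that stellate cells make, measured 35.6, 48.99 and 54.4 CPM against 40.7, 58.6 and 70.96 CPM (0.29 ± 0.169, adjusted p = 0.264). The matrix proteoglycan Dcn measured 76.8, 104 and 117 CPM against 92.1, 106 and 127 CPM (0.09 ± 0.138). Ecm1, a secreted matrix protein, measured 103, 130 and 158 CPM against 105, 121 and 141 CPM. The groups of all 10 overlapped. Des, the intermediate filament desmin, measured 4.13, 4.87 and 5.91 CPM against 3.89, 5.28 and 6.06 CPM, and the transcription factor Lhx2 measured 4.54, 5.12 and 6.61 CPM against 4.76, 5.08 and 6.24 CPM, a log2 fold change of 0.00 ± 0.181. Hhip (0.27), Pdgfrb (0.24), Hand2 (0.09) and Colec11 (-0.09) did not pass the test.

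**Figure D3:**
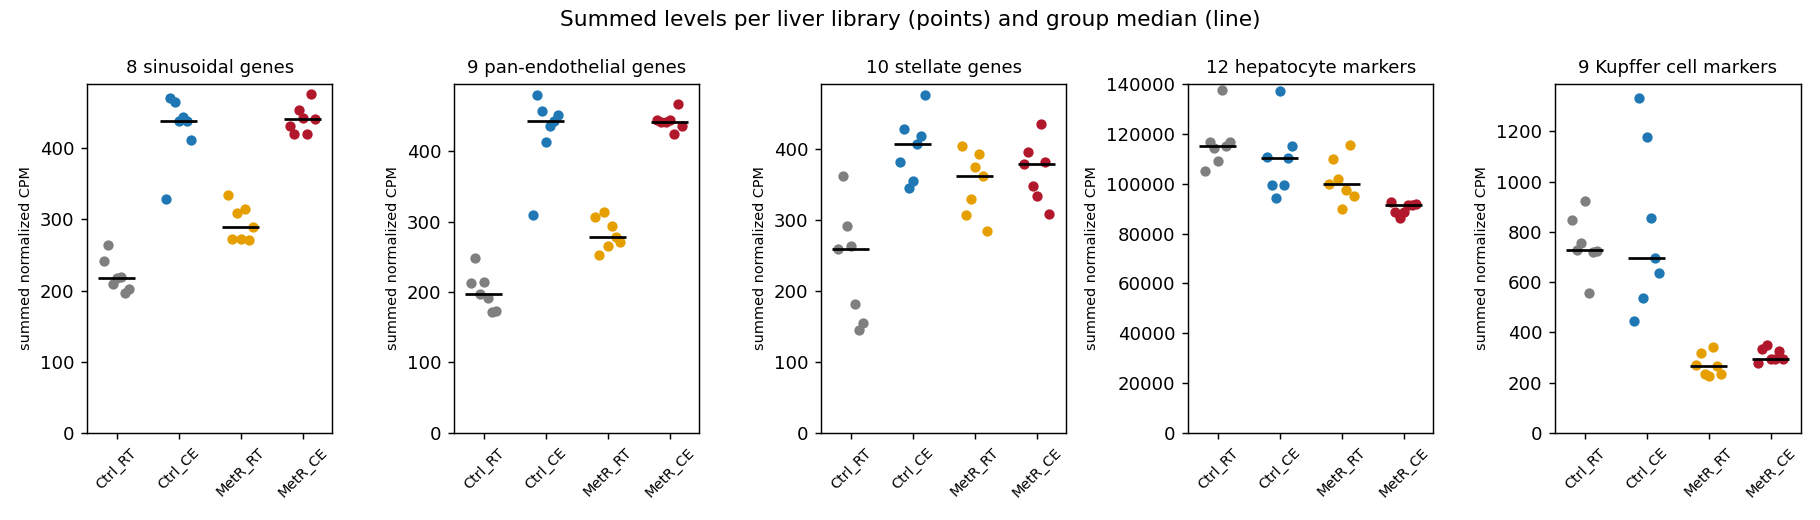
Summed level (normalized CPM, linear axes from 0) of the 8 sinusoidal, 9 pan-endothelial and 10 stellate genes and of 12 hepatocyte and 9 Kupffer cell markers in each liver library (points), with the group median (line). Sinusoidal and pan-endothelial sums of MetR_CE lie above those of MetR_RT without overlap, while the stellate sums overlap.

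Summed over roles, the sinusoidal genes reached 271.1, 290 and 334 CPM (lowest, median, highest) in MetR_RT and 420, 441 and 477 CPM in MetR_CE. The pan-endothelial genes reached 252.7, 277.8 and 314 CPM against 425, 442 and 467 CPM, so both sums separated the groups fully. The stellate genes reached 284.2, 362 and 405 CPM against 309, 379 and 435 CPM and did not. Beside these, the 12 hepatocyte markers summed to 90020 to 115600 CPM in MetR_RT and 86210 to 92590 CPM in MetR_CE, with 1 marker called higher (Pck1, log2 fold change 1.29) and 2 lower (Apoa1, -0.81, and Fgb, -0.72). The 9 Kupffer cell markers summed to 227 to 343 CPM and 280 to 349 CPM, with 1 called higher (Csf1r, 0.66). The 5 erythroid markers summed to 70.5 to 135 CPM and 45.2 to 99.0 CPM, with 3 called lower. The 4 genes listed as lymphatic endothelial markers (79.9 to 117 CPM and 100 to 145 CPM) and the 4 mesothelial markers (up to 7.62 CPM) had 0 called by edgeR. Whether the lymphatic list reads only lymphatic vessels in liver was not tested. The part of these shifts in the endothelial values was not tested.

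Promoter sequences of RefSeq (build GRCm38.p6) were at hand for 20 of the 33 genes. In the 250 bases before the first start listed for each gene, the ETS-like letters CAGGAA, sought on both strands, which resemble the core bound by endothelial ETS factors such as Erg and Fli1, stood in 9 of the 20, namely Stab1, Stab2, Clec4g, Tek, Tie1, Lrat, Des, Ecm1 and Colec11. They stood in 25.4% of all 27025 promoters of that source. By role they stood in 3 of 4 sinusoidal, 0 of 2 signal, 2 of 6 pan-endothelial and 4 of 8 stellate promoters, so both risers in the cold on MetR and genes that were not called held them. The GATA-like letters AGATAA, again on both strands, stood in 2 of 20 (Colec11, Hand2) beside 10.3% of all promoters, and the MAF-like letters TGCTGA in 3 of 20 (Stab1, Wnt9b, Tek) beside 15.8%. A match is a stretch of letters and not a bound site. The stretches below hold no base inside the gene's annotated bounds, so those of Stab1 and Stab2 print fewer bases than the 250 searched, and they are shown because they set risers with the ETS-like letters (Stab1, Stab2, Tie1) and without them (Flt4) beside stellate genes with (Lrat) and without (Reln) that did not pass the test. The minus strand was read for Stab1 (chr14:31168652-31168891), Stab2 (chr10:87008039-87008192), Tie1 (chr4:118489850-118490099), Lrat (chr3:82903975-82904224) and Reln (chr5:22344706-22344955), and the plus strand for Flt4 (chr11:49609429-49609678). Capitals mark the ETS-like letters.
Stab1: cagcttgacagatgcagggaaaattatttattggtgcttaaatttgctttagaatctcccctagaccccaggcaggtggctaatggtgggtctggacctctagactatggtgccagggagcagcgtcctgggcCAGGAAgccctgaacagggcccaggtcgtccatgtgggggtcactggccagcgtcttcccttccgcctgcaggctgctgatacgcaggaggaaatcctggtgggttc
Stab2: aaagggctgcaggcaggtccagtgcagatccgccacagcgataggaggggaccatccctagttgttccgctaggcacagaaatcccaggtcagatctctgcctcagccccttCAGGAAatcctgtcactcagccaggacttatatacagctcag
Tie1: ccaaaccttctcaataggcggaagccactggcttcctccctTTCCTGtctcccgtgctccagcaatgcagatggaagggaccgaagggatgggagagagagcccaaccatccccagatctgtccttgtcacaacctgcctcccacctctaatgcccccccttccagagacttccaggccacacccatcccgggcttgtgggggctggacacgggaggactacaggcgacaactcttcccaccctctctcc
Flt4: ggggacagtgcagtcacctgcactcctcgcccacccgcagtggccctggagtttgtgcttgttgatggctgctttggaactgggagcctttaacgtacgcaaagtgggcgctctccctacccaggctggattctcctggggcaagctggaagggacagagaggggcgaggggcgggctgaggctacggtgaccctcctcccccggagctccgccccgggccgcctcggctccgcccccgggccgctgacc
Lrat: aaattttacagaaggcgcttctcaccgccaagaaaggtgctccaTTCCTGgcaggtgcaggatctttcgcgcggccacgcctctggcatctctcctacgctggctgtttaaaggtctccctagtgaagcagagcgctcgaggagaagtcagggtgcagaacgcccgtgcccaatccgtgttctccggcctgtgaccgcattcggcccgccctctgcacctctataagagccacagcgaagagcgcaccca
Reln: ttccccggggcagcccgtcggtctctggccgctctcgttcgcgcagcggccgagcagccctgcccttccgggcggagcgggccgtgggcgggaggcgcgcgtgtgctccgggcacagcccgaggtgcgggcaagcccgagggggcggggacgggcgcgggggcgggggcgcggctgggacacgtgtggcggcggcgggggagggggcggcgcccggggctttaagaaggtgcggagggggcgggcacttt

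MetR_RT vs Ctrl_RT asks what the restricted diet did without cold. It shares the Ctrl_RT libraries with the contrast that chose the genes, so a low value in those libraries raises both. A rise is thus favoured by the choice, and the calls and separated groups of this comparison are not an independent test. Of the 33 genes 9 rose and 0 fell, beside 2.88% of all genes that rose and 4.02% that fell. The risers were spread over the roles: Oit3 (log2 fold change 0.82 ± 0.0807) and Dnase1l3 (0.76 ± 0.0833) of the sinusoidal genes, Ptprb (0.72 ± 0.0891), Tek (0.69) and Kdr (0.66) of the pan-endothelial genes, and Hhip (0.89 ± 0.192), Lhx2 (0.87), Ecm1 (0.73) and Reln (0.68) of the stellate genes. Reln lost its call with DESeq2 and apeglm shrinkage (0.58) and without Ctrl_RT replicate 6. The stabilins differed little, at 0.16 for Stab1 and 0.17 for Stab2, as did Cdh5 (0.14) and Tie1 (0.15), none of which passed the test. Median log2 fold changes were 0.43 for sinusoidal, 0.48 for signal, 0.46 for pan-endothelial and 0.56 for stellate genes, where all genes tested had 0.005.

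Per library, Oit3 measured 11.8, 13.3 and 17.1 CPM in Ctrl_RT and 21.3, 25.4 and 27.96 CPM in MetR_RT. Dnase1l3 measured 22.5, 28.8 and 33.6 CPM against 43.8, 47.5 and 56.4 CPM. Both groups were apart for each of these genes, and for Gpr182, Fcgr2b, Kdr, Flt1, Tek and Ptprb, 8 genes in all, beside 2.99% of all genes. For the stellate genes the groups overlapped, because single Ctrl_RT mice were as high as MetR_RT mice. Ecm1 measured 44.8, 82.4 and 120 CPM in Ctrl_RT and 103, 130 and 158 CPM in MetR_RT. Hhip, a Hedgehog-binding inhibitor, measured 0.7102, 1.09 and 2.33 CPM against 1.86, 2.34 and 2.51 CPM. Lhx2, a transcription factor of quiescent stellate cells, measured 1.16, 2.86 and 4.83 CPM against 4.54, 5.12 and 6.61 CPM. The Kupffer cell markers moved the other way in the same comparison, with 5 of 9 called lower (Clec4f, Vsig4, Cd5l, C6, Csf1r) and sums of 555 to 922 CPM in Ctrl_RT and 227 to 343 CPM in MetR_RT. Their part in the endothelial and stellate values was not tested.

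MetR_CE vs Ctrl_CE asks whether diet mattered once mice were cold. It shares the Ctrl_CE libraries with the contrast that chose the genes, so a high value in those libraries lowers it. Of the 33 genes 0 were called by edgeR and 0 by DESeq2, with 4 under an unadjusted p of 0.05, beside 5.26% of all genes called. The median log2 fold change was -0.003. Only Oit3 (0.26 ± 0.0770, adjusted p = 0.0225) and Cdh5 (-0.34 ± 0.101, adjusted p = 0.0235) had an adjusted p under 0.05, both within the size limit. Cdh5 measured 26.1, 44.2 and 58.5 CPM in Ctrl_CE and 29.6, 34.9 and 39.2 CPM in MetR_CE. Stab1 measured 62.4, 97.8 and 110 CPM in Ctrl_CE and 86.8, 91.6 and 103 CPM in MetR_CE, and Kdr 49.8, 76.98 and 78.7 CPM against 74.1, 78.1 and 85.4 CPM, so that the Ctrl_CE libraries spread more widely and enclosed most MetR_CE values. In the same comparison all 9 Kupffer cell markers were called lower in MetR_CE.

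The interaction in liver is the cold step on MetR minus the cold step on the control diet. It contains the contrast that chose the genes with a negative sign, so low estimates come with the choice and the values are a description. Of the 33 genes 32 had a negative estimate and the median was -0.48 (all genes tested -0.03). By the call limits 1 gene lay below them, Dnase1l3 (-0.63 ± 0.116), where 0.682% of all genes did so, and nothing is read from that count. Dnase1l3 measured 22.5, 28.8 and 33.6 CPM in Ctrl_RT, 54.2, 63.2 and 76.3 CPM in Ctrl_CE, 43.8, 47.5 and 56.4 CPM in MetR_RT and 63.8, 69.8 and 77.9 CPM in MetR_CE. MetR_RT was thus the group that stood between the others. Oit3 had -0.56, Ptprb -0.51 and Fcgr2b -0.49, and the 10 stellate genes had a median of -0.63. The count of 1 moved with single libraries: it was 0 without Ctrl_RT replicate 6 or MetR_RT replicate 3, 8 without Ctrl_RT replicate 2, 4 without Ctrl_CE replicate 1 and 3 without Ctrl_CE replicate 4. It was 2 without MetR_RT replicate 2, 6 or 7, and Dnase1l3 lay within the size limit without Ctrl_CE replicate 3 (-0.58).

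Other genes of these cells were listed for their role in endothelium or stellate cells. Of 22 further endothelial genes 7 rose and 0 fell in MetR_CE vs MetR_RT: the coagulation factor F8 (log2 fold change 0.94), Ehd3 (0.81), the mannose receptor Mrc1 (0.79), Vwf (0.75), Mmrn2 (0.72), Sox7 (0.67) and Bmp6 (0.64). Ehd3, an endocytic protein, measured 53.5, 64.5 and 73.7 CPM in MetR_RT and 103, 116 and 126 CPM in MetR_CE, without overlap. Plvap, the protein of fenestral diaphragms, measured 43.5, 53.5 and 56.9 CPM against 48.7, 56.2 and 60.7 CPM (0.14). Mrc1 is also made by Kupffer cells. Of 13 further stellate genes 1 rose, the hepatocyte growth factor Hgf (1.20 ± 0.158, from 3.27, 4.16 and 4.63 CPM to 4.76, 9.63 and 11.6 CPM). Vipr1 (0.44), Colec10 (0.47) and Rgs5 (0.22), the most abundant of that list by CPM, were not called. Of 14 genes of stellate cell activation 0 were called in either direction by edgeR, among them Spp1 (-0.32), Col3a1 (-0.38) and Vim (-0.11).

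Ligands and targets of the receptors were taken next. Of 14 ligand genes 13 were tested, 1 rose and 2 fell in MetR_CE vs MetR_RT: Bmp10, a ligand bound by Eng (0.74 ± 0.150, from 2.30, 3.30 and 4.15 CPM to 4.21, 5.24 and 7.68 CPM), Vegfd, a ligand of Flt4 (-0.97 ± 0.213, from 2.71, 3.15 and 5.29 CPM to 1.19, 1.65 and 2.86 CPM), and Pdgfc (-0.72). Vegfd had risen in MetR_RT vs Ctrl_RT (1.41 ± 0.221). Vegfa measured 178, 198 and 238 CPM against 186, 203 and 217 CPM (-0.03), and Gdf2, the gene of Bmp9, had 0.36 and Vegfb -0.51, neither called. Of 14 hepatocyte genes that respond to Wnt signals 1 rose, Oat (0.66 ± 0.109, from 527, 673 and 861 CPM to 1018, 1073 and 1290 CPM), while Glul (0.22), Cyp2e1 (-0.31) and the others were not called. Of 8 genes that respond to BMP signals 1 rose, Smad9 (0.75 ± 0.251), while Hamp (0.19), Id2 (-0.42) and Id3 (-0.24) were not called.

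In MetR_RT vs Ctrl_RT, 5 of the 22 further endothelial genes rose (Bmp6 0.92, Robo4 0.89, Ehd3 0.68, Erg 0.60, Cldn5 0.60) and 4 of the 13 further stellate genes rose (Angptl6 1.01, Colec10 0.68, Vipr1 0.67, Tcf21 0.65). Of the 14 activation genes, Ccn2 rose (0.94) and Spp1 fell (-1.78). Spp1 is also a gene of bile duct cells, and 1 Ctrl_RT library (replicate 7) stood high in the 6 cholangiocyte markers at 319 CPM, where the others of its group lay between 45.8 and 70.1 CPM. In MetR_CE vs Ctrl_CE, 5 of the 14 activation genes fell (Col1a1 -1.39, Col3a1 -1.26, Col1a2 -1.002, Vim -0.70, Tgfb1 -0.70) while 0 of the 10 stellate genes of the set were called, and Bmp6 was higher (0.59).

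In the fat depots several genes that define sinusoidal and stellate cells in liver were at or near 0. Clec4g was at 0 in 21 of 26 iBAT libraries and reached 0.260 CPM in iWAT and 0.468 CPM in eWAT. Stab2 reached 0.357 CPM in iBAT, 2.13 CPM in eWAT and 6.61 CPM in iWAT, in 1 MetR_RT library, Lrat 0.155, 0.703 and 0.722 CPM in iBAT, iWAT and eWAT, and Hand2 was at 0 in all 26 iBAT libraries. Pan-endothelial genes were well measured, with Pecam1 at 112 to 162 CPM in iBAT, 92.0 to 221 CPM in iWAT and 180 to 329 CPM in eWAT. Stab1, Fcgr2b, Lyve1 and Maf are also expressed by resident macrophages of fat, and Dcn and Ecm1 by its fibroblasts.

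**Figure D4:**
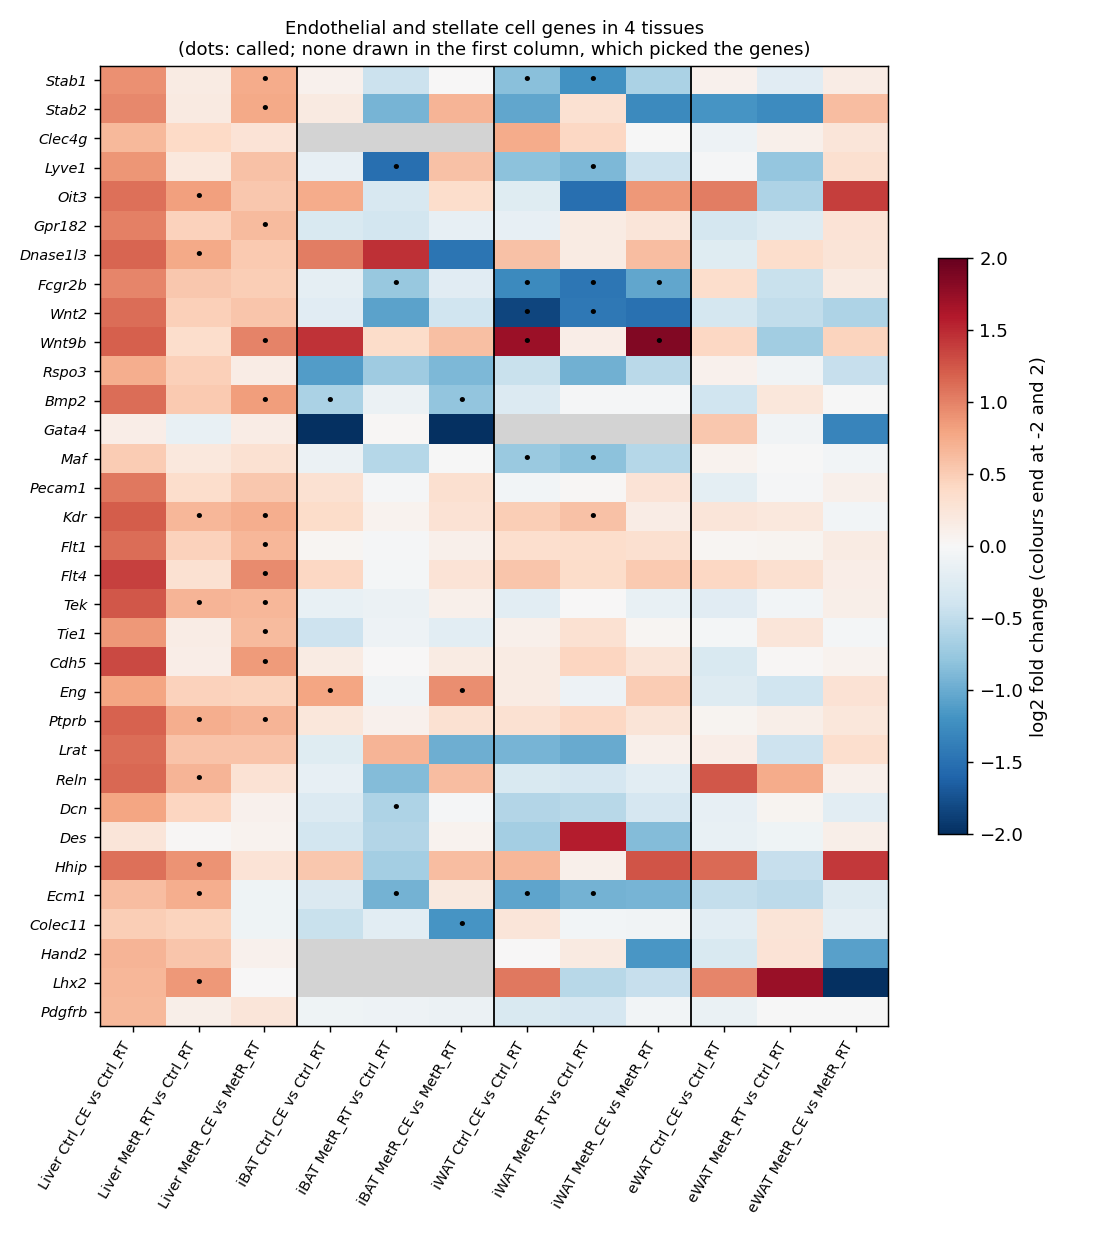
Log2 fold change (colour, ends at -2 and 2) of the 33 genes (vertical axis) in 3 comparisons of each of 4 tissues (horizontal axis). Dots mark called values, grey cells genes not tested, and the first column, which chose the genes, carries no dots. Liver MetR_CE vs MetR_RT has 12 dots, all for higher values, and the 3 eWAT comparisons have 0.

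In iBAT 1 pan-endothelial gene rose in the cold on either diet. Eng measured 134, 153 and 175 CPM in Ctrl_RT, 214, 271.8 and 312 CPM in Ctrl_CE, 129, 145 and 165 CPM in MetR_RT and 242.8, 280.9 and 296.8 CPM in MetR_CE, so cold and warm groups did not overlap (7.8% of all genes on the control diet and 6.95% on MetR). Its log2 fold change was 0.79 ± 0.0851 on the control diet and 0.93 ± 0.0791 on MetR (edgeR adjusted p = 1.63e-08 and 8.04e-10). Beside it, Bmp2 fell in the cold on both diets, by 0.63 on the log2 scale on the control diet and, on MetR, from 1.18, 1.34 and 1.83 CPM to 0.478, 0.817 and 1.14 CPM (-0.79 ± 0.189), again apart (4.83% of all genes). In liver its fold change was positive. Bmp2 in Ctrl_CE vs Ctrl_RT was not called with apeglm shrinkage (-0.52). Colec11 fell on MetR (-1.17 ± 0.375) from at most 0.602 CPM, and this call was lost when 3 iBAT libraries whose treatment tag differs from their title were grouped by the tag. In all, 2 of 30 genes were called in Ctrl_CE vs Ctrl_RT (4.97% of all genes higher, 9.72% lower) and 3 of 30 in MetR_CE vs MetR_RT (3.41% higher, 5.13% lower). Both counts lie near or under these shares, so neither is read as a result about the set. Kdr (0.37 and 0.28), Pecam1 (0.31 and 0.31) and Flt4 (0.42 and 0.28) had adjusted p under 0.05 below the size limit on both diets, and Ptprb had so on MetR (0.31). Tie1 had the opposite sign, also with adjusted p under 0.05 on both diets and within the size limit. It measured 74.8, 89.6 and 93.1 CPM in Ctrl_RT and 61.5, 65.1 and 70.4 CPM in Ctrl_CE (-0.41 ± 0.0708, edgeR adjusted p = 3.51e-05), and 73.2, 76.96 and 92.01 CPM in MetR_RT and 63.1, 70.4 and 86.4 CPM in MetR_CE (-0.20 ± 0.0658, edgeR adjusted p = 0.0210). The pan-endothelial genes of iBAT thus did not share 1 direction in the cold.

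MetR at RT lowered 4 of the 30 genes in iBAT and raised 0, beside 1.97% of all genes lower and 0.535% higher. These were Lyve1 (-1.50 ± 0.326), Ecm1 (-0.94 ± 0.170), Fcgr2b (-0.76 ± 0.211) and Dcn (-0.62 ± 0.116). Ecm1 measured 13.4, 18.6 and 25.5 CPM in Ctrl_RT and 7.62, 9.92 and 12.5 CPM in MetR_RT, and Lyve1 1.59, 3.16 and 5.74 CPM against 0.524, 1.20 and 1.45 CPM, each without overlap, as were 1.5% of all genes. Dcn, at 62.0, 78.1 and 96.6 CPM against 43.1, 53 and 57.1 CPM, also stood apart, and its call was lost with apeglm shrinkage (-0.54). Stab1 was not called but stood apart too, at 36.54, 40.62 and 48.11 CPM against 26.79, 31.25 and 34.73 CPM. The groups of Fcgr2b overlapped. Of 6 macrophage markers 3 were called lower in the same comparison, and the 6 summed to 70.4 to 124 CPM in Ctrl_RT and 39.5 to 70.9 CPM in MetR_RT. In MetR_CE vs Ctrl_CE, 1 of 30 genes was lower (Fcgr2b, -0.81), beside 1.16% of all genes lower, and 5 of the 6 macrophage markers were lower. The 6 fibroblast and mural cell markers (Pdgfra, Col1a1, Col3a1, Rgs5, Acta2, Myh11) summed to 681.7 to 1170 CPM in Ctrl_RT and 513.5 to 635.1 CPM in MetR_RT, and 4 of the 6 were called lower in MetR_RT vs Ctrl_RT. The part of macrophage, fibroblast and mural cell markers in these values was not tested.

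In iWAT 5 of the genes fell under either stimulus. Macrophages or fibroblasts of fat also express 4 of them, and which cells of fat made Wnt2 was not tested. On the control diet, cold lowered Wnt2 (-1.84 ± 0.447), Fcgr2b (-1.27 ± 0.287), Ecm1 (-1.06 ± 0.287), Stab1 (-0.84 ± 0.239) and Maf (-0.74 ± 0.233) and raised Wnt9b (1.70 ± 0.448), 6 of 32 genes beside 9.94% of all genes lower and 5.99% higher. MetR at RT lowered the same 5 genes (Fcgr2b -1.45, Wnt2 -1.44, Stab1 -1.21, Ecm1 -0.94, Maf -0.81) and Lyve1 (-0.90), and raised Kdr (0.59 ± 0.138), 7 of 32 beside 7.36% lower and 4.25% higher. These comparisons share the Ctrl_RT libraries. The Lyve1 call was lost with factors by relative log expression, without a filter, or with only the compared groups in the fit, and the Kdr call with apeglm shrinkage (0.56) or edgeR's filterByExpr (0.58).

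Stab1 in iWAT measured 238, 249.4 and 363 CPM in Ctrl_RT, 87.1, 140 and 293 CPM in Ctrl_CE, 75.4, 94.5 and 199 CPM in MetR_RT and 63.5, 78.97 and 93.8 CPM in MetR_CE. Fcgr2b measured 61.9, 69.03 and 125 CPM, 15.2, 28.8 and 62.3 CPM, 13.6, 21.5 and 54.1 CPM, and 9.68, 13.9 and 21.6 CPM in the same order. In both, Ctrl_RT was highest, MetR_RT lay below it without overlap (2.96% of all genes), and MetR_CE was lowest by its median. The 6 macrophage markers moved with them: their sum had a median of 1439 CPM and a highest value of 2199 CPM in Ctrl_RT, 623 and 1528 CPM in Ctrl_CE, 449 and 1064 CPM in MetR_RT, and 268.1 and 494 CPM in MetR_CE. The lowest Ctrl_RT library, at 1342 CPM, lay above every MetR library. Of the 6 markers, 6 were called lower in Ctrl_CE vs Ctrl_RT and 5 in MetR_RT vs Ctrl_RT. The 6 fibroblast and mural cell markers also stood lower outside Ctrl_RT. Their sum had a lowest, median and highest value of 6084, 12610 and 21950 CPM in Ctrl_RT, 720.2, 3669 and 9070 CPM in Ctrl_CE, 1716, 2165 and 5145 CPM in MetR_RT and 932.8, 1264 and 1608 CPM in MetR_CE. Of these 6, 3 were called lower in Ctrl_CE vs Ctrl_RT, 3 lower and 1 higher in MetR_RT vs Ctrl_RT and in MetR_CE vs Ctrl_RT, and 2 lower in MetR_CE vs MetR_RT. The part of both marker lists in the values of the set was not tested.

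**Figure D5:**
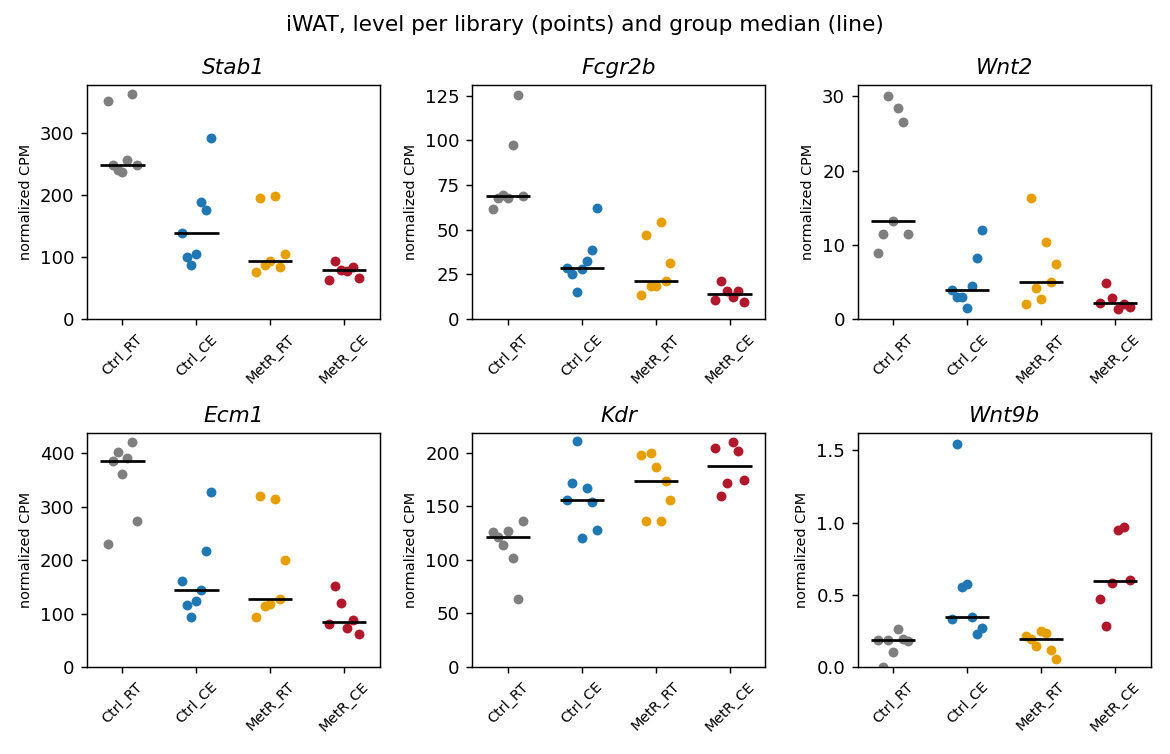
Level of 6 of the genes in each iWAT library (points; normalized CPM on linear axes that start at 0) with the group median (line). Stab1 and Fcgr2b are highest in Ctrl_RT, at 238 to 363 and 61.9 to 125 CPM, and Wnt9b stays under 1.55 CPM in every library.

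Cold on MetR called 2 of 32 genes in iWAT, beside 0.602% of all genes higher and 1.28% lower. Wnt9b rose (1.85 ± 0.445, adjusted p = 0.0156) from 0.0565, 0.194 and 0.251 CPM to 0.281, 0.593 and 0.970 CPM without overlap (1.88% of all genes), on 0 to 32 counts per iWAT library. Fcgr2b fell (-1.04 ± 0.304, adjusted p = 0.0430), and its call was lost with apeglm shrinkage, without a filter and with only the compared groups in the fit. In MetR_CE vs Ctrl_CE, Stab1 (-1.002 ± 0.252) and Fcgr2b (-1.21 ± 0.305) were lower, beside 1.55% of all genes. Set against Ctrl_RT, MetR_CE had 7 genes higher and 8 lower of 32, beside 8.05% of all genes higher and 14.4% lower. The higher ones were Wnt9b (1.99), Hhip (1.37) and 5 of the 9 pan-endothelial genes, Flt4 (0.89), Kdr (0.73), Cdh5 (0.69), Flt1 (0.67) and Ptprb (0.67). Kdr measured 63.1, 122 and 136 CPM in Ctrl_RT and 160, 188 and 210 CPM in MetR_CE, and Flt4 4.98, 9.75 and 11.03 CPM against 13, 15.3 and 19.4 CPM, both without overlap (9.25% of all genes). The lower ones were Wnt2 (-2.92), Fcgr2b (-2.48), Ecm1 (-1.88), Stab1 (-1.84), Rspo3 (-1.49), Maf (-1.39), Lyve1 (-1.33) and Dcn (-0.89).

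In eWAT 0 of the 33 genes were called by edgeR in Ctrl_CE vs Ctrl_RT, MetR_RT vs Ctrl_RT or MetR_CE vs MetR_RT, beside 2.42%, 0.115% and 0.112% of all genes, and 0 by DESeq2. At an unadjusted p under 0.05 stood 4, 5 and 6 genes. Ecm1 measured 103, 143 and 189 CPM in Ctrl_RT and 54.6, 81.1 and 102 CPM in MetR_CE, and it was the 1 gene called in MetR_CE vs Ctrl_RT (-0.79 ± 0.162, adjusted p = 0.00889; 0.695% of all genes lower). In MetR_CE vs Ctrl_CE, Bmp2 was higher (0.62 ± 0.137, from 4.45, 5.60 and 6.62 CPM to 6.38, 8.95 and 11.3 CPM), beside 2.23% of all genes. Gata4 was lower there (-1.94 ± 0.611), beside 2.12%, on 1 to 38 counts per library. The diet by temperature interaction called 0 genes of the set in iBAT, iWAT or eWAT by edgeR or DESeq2, beside 0.372%, 1.65% and 2.3% of all genes, with 3, 0 and 6 under an unadjusted p of 0.05.

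Whether the cold step on MetR was larger in liver than in a depot was tested for each gene in a joint fit of the 2 tissues. Liver minus depot is the difference of 2 log2 fold changes. The 2 tissues came from the same mice, but this fit took their libraries as independent, and so did its errors and adjusted p-values. The liver side of this difference carries the choice of the genes for their rise in liver. A higher value in liver is therefore favoured by the choice, and nothing is read from the shared direction. Against iBAT 8 genes were called, all higher in liver: Dnase1l3 (1.98 ± 0.621), Bmp2 (1.60 ± 0.256), Tie1 (0.83), Gpr182 (0.77), Stab1 (0.72), Fcgr2b (0.70), Cdh5 (0.68) and Flt4 (0.66), beside 3.62% of all genes. Within the size limit, Kdr (0.44), Flt1 (0.55) and Tek (0.55) were higher in liver with an adjusted p under 0.05. Eng had the opposite sign, with a larger step in iBAT (-0.50 ± 0.119, edgeR adjusted p = 0.00183). Dnase1l3 stood at up to 1.63 CPM in iBAT, where 3 of 26 libraries had 0. That highest value is MetR_RT replicate 6, and without this library Dnase1l3 had 0.89 ± 0.629 (edgeR adjusted p = 0.421) and was not called, nor was Fcgr2b (0.54). Without MetR_CE replicate 3 Dnase1l3 missed the adjusted p (0.0537). Against iWAT 7 differed, all higher in liver: Wnt2 (2.00 ± 0.513), Stab2 (1.94 ± 0.541), Fcgr2b (1.495 ± 0.309), Stab1 (1.34 ± 0.263), Maf (0.85), Bmp2 (0.82) and Tek (0.78), beside 1.79%. The value of Stab2 rests on iWAT MetR_RT replicate 6, the library at 6.61 CPM: without it the difference was 0.66 ± 0.387 (edgeR adjusted p = 0.370) and Stab2 was not called. Bmp2 was not called without MetR_RT replicate 2, 5 or 7 or MetR_CE replicate 1 or 6 of iWAT, and Maf not without MetR_RT replicate 2 or 5 or MetR_CE replicate 1 or 4. Against eWAT 6 differed, all higher in liver: Bmp2 (0.83 ± 0.211), Flt4 (0.82), Kdr (0.79), Cdh5 (0.78), Tie1 (0.68) and Stab1 (0.59), beside 1.04%. Stab1 lay close to the size limit and was not called without MetR_RT replicate 1, 2 or 5 or MetR_CE replicate 1 or 2 of eWAT. With all libraries Stab1 and Bmp2 were called against all 3 depots, and 0 of the 10 stellate genes against any of them by edgeR. With limma voom and the mouse as a block the counts were 8, 4 and 5, and which of the listed genes kept their call there is not given here.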

How the data were processed

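The authors aligned reads to mm10 with GENCODE vM25 annotation (STAR 2.7.9a), counted them with featureCounts 2.0.3 and also ran Salmon 1.9.0. Which of these gave the deposited whole-number counts per gene was not given in the sources used here. All 110 sample columns were mapped by title. The study gives only how many libraries of a group it left out. Which ones was inferred, as the subset whose mean normalized counts lay closest to the mean levels the study gives, and left out here were iBAT Ctrl_CE replicate 5, eWAT Ctrl_RT replicates 2, 4 and 5 and eWAT MetR_RT replicate 7. Gene identifiers were matched to symbols for 51948 of 56884.

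Per tissue, genes with at least 10 counts in total were fitted over 4 groups with edgeR 4.0.16 (R 4.3.3; TMM factors, quasi-likelihood test, Benjamini-Hochberg adjustment over all genes), and a call needed an adjusted p under 0.05 and a fold change of at least 1.5. The filter kept 22143 genes for liver, 23915 for iBAT, 26428 for iWAT and 27786 for eWAT. Liver minus depot differences came from joint fits, with the mouse as a block only in the limma voom alternative. Replicates were separate mice. Errors are standard errors of the log2 fold change.

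The genes named are the 33 of the set, the called genes of the other lists and the 3 genes with the highest mean level in each pathway list. The result of 1 listed gene is not reported here. Members and lists were chosen with earlier results of these data known. The settings varied were the tool (DESeq2 1.42.0, unshrunken or shrunken by apeglm 1.24.0), factors by relative log expression, filterByExpr, no filter, a replicate block, the compared groups alone, all libraries, iBAT groups by treatment tag, limma 3.58.1 voom for joint fits and leaving out replicates. Leaving out each liver library, and each depot library of MetR_RT and MetR_CE in the joint fits, was added after seeing the data. Scripts were tested on simulated data. Promoter sequences came from RefSeq (GRCm38.p6).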

Additional observations from a re-analysis of the deposited data

Results flagged for a closer look

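Single libraries stood far from the rest of their group in 13 of 192 combinations of gene, tissue and group examined, by Dixon's gap at the 95% level. Chance gives about 1 in 20. In liver, Wnt9b reached 4.91 CPM in Ctrl_CE replicate 3 (next 2.7), Cdh5 22.4 CPM in MetR_RT replicate 1 (next 19.7), Des 7.58 CPM in Ctrl_RT replicate 1 (next 4.91) and Hhip 2.33 CPM in Ctrl_RT replicate 2 (next 1.37). Ptprb was lowest in Ctrl_CE replicate 1 at 57.8 CPM (next 77). In iBAT, Fcgr2b reached 7.51 CPM in Ctrl_RT replicate 5 (next 4.64), Dcn 69.6 CPM in MetR_CE replicate 2 (next 52.9) and Bmp2 1.83 CPM in MetR_RT replicate 1 (next 1.4). In iWAT, Maf reached 287.4 CPM in Ctrl_CE replicate 7 (next 158), 328 CPM in Ctrl_RT replicate 6 (next 259.2) and 141 CPM in MetR_CE replicate 2 (next 94.3). Wnt9b reached 1.54 CPM in iWAT Ctrl_CE replicate 2 (next 0.576), and Cdh5 258.4 CPM in iWAT Ctrl_CE replicate 3 (next 189).

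The cold step on MetR was called higher in liver than in iBAT for 8 genes, than in iWAT for 7 and than in eWAT for 6. The choice of the genes for their rise in liver favours this direction. Dnase1l3 against iBAT and Stab2 against iWAT were not called without 1 depot library each.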

How the results depend on the processing

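Over the 1978 member calls recomputed, 0 changed direction and 29 were no longer past the limits, 11 of these in the 1428 that left out a library. Only calls already made in the main fit were recomputed, and those that left out a library were all of liver. Most of these belong to liver Ctrl_CE vs Ctrl_RT, which chose the genes, and to the liver interaction that contains it. The other liver calls are rises of genes chosen for a rise in liver. A direction kept in liver comes with the choice, so nothing is read from the totals about liver. The count for liver MetR_CE vs MetR_RT was 12 in every other alternative and 12 to 14 without any 1 liver library. Leaving out libraries gave 26 to 30 in liver Ctrl_CE vs Ctrl_RT, 8 to 11 in MetR_RT vs Ctrl_RT, 0 in MetR_CE vs Ctrl_CE and 0 to 8 in the interaction, where DESeq2 without shrinkage gave 5 and filterByExpr 2 against 1. Without single eWAT Ctrl_RT libraries, eWAT Ctrl_CE vs Ctrl_RT gave 0 to 1, with 1 only without replicate 6. iBAT Ctrl_CE vs Ctrl_RT gave 1 with apeglm against 2. iWAT MetR_CE vs MetR_RT gave 4 with DESeq2 without shrinkage and with filterByExpr, and 1 with apeglm, without a filter, with the replicate block and with only the compared groups, against 2. Liver minus iWAT gave 4 with limma voom against 7. Without any 1 depot library of MetR_RT or MetR_CE, liver minus iBAT gave 6 to 9, liver minus iWAT 6 to 7 and liver minus eWAT 5 to 6. The interaction in liver contains the contrast that chose the genes, so its counts are a description. The cause of these shifts was not tested. Depth limits Wnt9b, Colec11 in iBAT and Gata4 in eWAT, which rest on few counts.

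The replicate block gave 12 calls in liver MetR_CE vs MetR_RT, 9 in MetR_RT vs Ctrl_RT, 0 in MetR_CE vs Ctrl_CE and 1 in the interaction, and 3 in iBAT MetR_RT vs Ctrl_RT against 4. Same-numbered pairs had deviations correlated above 0.1 in 4 of 42 pairs in liver, 16 of 36 in iBAT, 18 of 39 in iWAT and 15 of 30 in eWAT, so not every pair did in any tissue and the numbers were not taken to pair the samples. Libraries correlated best with their own number in 2 of 28, 5 of 26, 4 of 27 and 7 of 24.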
